A study of Mus musculus with 5 samples.

Results

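The cells described here were CD8+ T cells that carried transcripts of the granzymes encoded by Gzmd, Gzme, Gzmf and Gzmg, taken from mouse 4T1 mammary tumors treated with doxorubicin (DOX). Members were selected on measured unique molecular identifier (UMI) counts in the 2 libraries of enriched T cells. Barcodes needed 500 or more genes with a UMI, and mitochondrial genes could hold no more than 10% of their UMIs. A member had at least 1 UMI of Cd3d, Cd3e and Cd3g together, at least 1 of Cd8a and Cd8b1 together, no Cd4 UMI, at least 3 UMIs of the 4 granzymes together, and fewer than 2 of the cycle genes Mki67, Top2a, Birc5, Ccna2 and Ube2c detected. This gave 82 members among 6810 kept cells of the T cell libraries, 18 in the sensitive library and 64 in the resistant library. All 5 libraries together held 11119 barcodes before these filters. The comparison cells were the 2710 CD8+ non-cycling cells that passed the same gate with fewer than 3 granzyme UMIs (1285 sensitive, 1425 resistant). The high granzyme levels of the members were therefore set by the rule and are given as a description.

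Both T cell libraries came from BALB/c mice, 12 weeks old per the labels, with tumors in the mammary fat pad grown from 4T1-Thy1.1 cells, a 4T1 line that carries CD90.1. All of these mice received DOX intravenously at 5 mg/kg in 3 treatments, 3 days apart, and their tumors were labelled sensitive or resistant by response. T cells were enriched by magnetic depletion of other cells with a pan T cell kit and with CD90.1 beads that remove the cancer cells, and cells of 3 tumors were pooled into each library. With 1 library per group, differences between mice were not measurable, no test between conditions was possible, and each interval below covers counting error at 95% only. The other 3 libraries held whole tumor, from mice given saline (control) or DOX (sensitive, resistant), and are used only for a note on the same granzymes.

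The median depth of members was 4848.5 UMIs (sensitive) and 6537.5 UMIs (resistant), and that of the comparison cells 3984 and 4394. The libraries held 31690845 and 35908799 UMIs over all barcodes. They carried CD8 T cell transcripts throughout. Cd8a was detected in 18 of 18 and 63 of 64 members, Cd3e in 18 of 18 and 64 of 64, and the T cell receptor constant gene Trac in 15 of 18 and 56 of 64. Some members also held RNA of other lineages. In the sensitive library 1 member held 493 of the 497 UMIs of 6 fibroblast markers, and in the resistant library 1 member held 175 of 186. Another resistant member held 395 of the 399 UMIs of 6 neutrophil markers, and in each library 1 member had at least 10 UMIs of macrophage and of dendritic cell markers. In all, 2 sensitive and 3 resistant members reached 10 UMIs of a marker list of a lineage outside T and NK cells, against 55 and 105 of the comparison cells. Of 6 NK markers Klrb1c, Klra4 and Klra8 were at 0 in the members of both libraries, and the list summed to 18 UMIs in 5 sensitive and 30 in 15 resistant members, 14 and 12 of them in 1 cell. B cell markers had 0 and 1 UMI and erythroid markers none. The doublet caller Scrublet marked 1 sensitive member and no resistant member. The 2 libraries shared 31 barcodes, of which 1 was a resistant member.

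Granzymes are serine proteases that cytotoxic lymphocytes store in granules with perforin, the pore-forming protein that lets them enter a target cell. Granzyme B and granzyme A are made by many killer cells of mouse and human. The mouse also has a set of rodent-specific granzymes, C to G, encoded beside granzyme B, which appear in strongly and repeatedly stimulated CD8 T cells and in activated NK cells and whose substrates are far less well known.

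Members made up a larger share of CD8+ non-cycling cells in the resistant library. With each cell thinned to 2000 UMIs, 48 of 1399 cells (3.43%, exact binomial interval 2.54% to 4.52%) had at least 3 UMIs of the 4 granzymes in the resistant library and 13 of 1184 (1.10%, 0.586% to 1.87%) in the sensitive library. The ratio of the shares was 3.12 (1.70 to 5.74). Thinning left out 90 resistant and 119 sensitive cells of lower depth. Without thinning the shares were 4.30% and 1.38%, a ratio of 3.11. The filters kept 3250 of 6116 resistant barcodes and 3560 of 3949 sensitive ones. Over all barcodes the median mitochondrial share was 8.95% in the resistant and 2.47% in the sensitive library. The ratio was 2.55 (1.43 to 4.55) with a mitochondrial limit of 20%, and 3.44 (1.76 to 6.75) with 5%. At 1 or more UMIs the ratio was 2.61, at 5 or more 3.05, and at 10 or more, which 27 resistant and 3 sensitive cells reached, 7.62 (2.32 to 25.04). With Gzmf left out of the sum, 14 and 7 cells remained, and the ratio was 1.69 with an interval of 0.685 to 4.18 that included 1. As a measure of free RNA, fibroblast-gated cells, which should lack granzymes and were deeper (medians of 13110.5 and 13726 UMIs), reached 3 UMIs in 3 of 788 cells (0.381%) of the sensitive and 3 of 557 (0.539%) of the resistant library, and in 1 of 749 and 0 of 550 after thinning. Just inside the threshold 1 sensitive and 4 resistant members had exactly 3 granzyme UMIs, and just outside it 5 and 16 comparison cells had exactly 2.

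**Figure D1:**
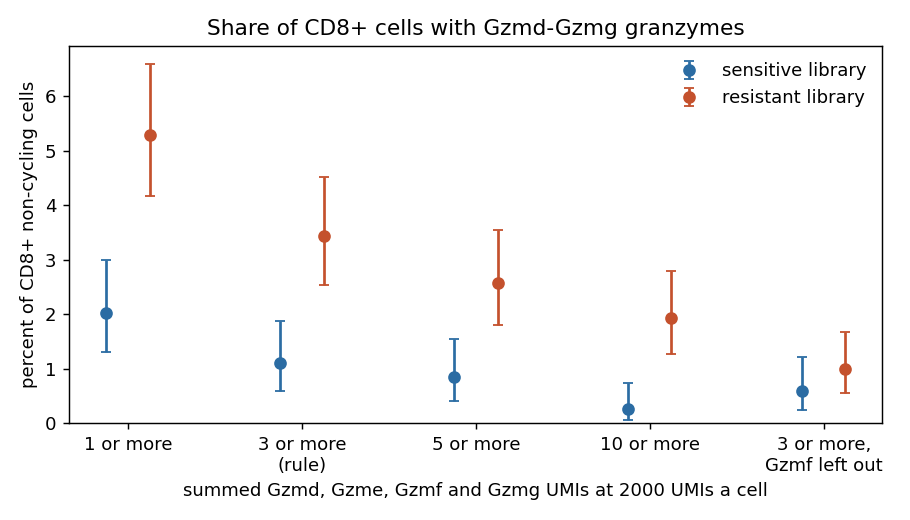
Percent of CD8+ non-cycling cells (vertical axis) that reached the number of summed Gzmd, Gzme, Gzmf and Gzmg UMIs on the horizontal axis after thinning to 2000 UMIs, with exact binomial 95% intervals, in the sensitive (blue) and resistant (red) libraries. The resistant share is higher at each threshold with Gzmf in the sum, from 5.29% against 2.03% at 1 UMI to 1.93% against 0.253% at 10, and the intervals overlap once Gzmf is left out.

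Other gates of the T cell libraries held these granzymes too. Among CD8+ cycling cells 17 of 242 (7.02%) in the resistant and 2 of 110 (1.82%) in the sensitive library had at least 3 UMIs, at medians of 10003 and 9444 UMIs a cell. After thinning the counts were 6 of 241 and 2 of 108. Cells without CD3 transcripts but with the NK receptor genes Ncr1 or Klrb1c reached it in 8 of 54 (14.8%, 6.62% to 27.1%) and 5 of 95 (5.26%, 1.73% to 11.9%). Of CD4+ cells without Cd8, 0 of 56 and 1 of 215 did. Cells with both Cd4 and Cd8 transcripts reached it in 6 of 107 (5.61%, 2.09% to 11.8%) with 419 granzyme UMIs and in 1 of 133 (0.752%), at medians of 7271 and 8628 UMIs a cell.

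Among the 4 granzymes of the rule, Gzmf led in both libraries. In the resistant library Gzmf was detected in 60 of 64 members with 2357 UMIs, Gzmd in 23 with 738, Gzme in 22 with 577 and Gzmg in 11 with 415. In the sensitive library Gzmf was detected in 14 of 18 members with 530 UMIs, Gzmd in 10 with 205, Gzme in 7 with 129 and Gzmg in 2 with 14. Gzmf alone was present in 38 resistant members (59.4%) and 8 sensitive members (44.4%). All 4 granzymes were present together in 9 and 2 members, and Gzmd with Gzme but no Gzmf in 4 and 4. Levels were uneven from cell to cell. The median member held 18.5 granzyme UMIs in the resistant and 16 in the sensitive library, while 1 resistant cell held 945 of 4087 and 1 sensitive cell 439 of 878. The highest resistant cell had 286 Gzmd, 149 Gzme, 276 Gzmf and 234 Gzmg UMIs with 417 of Gzmc, and the highest sensitive cell 138, 95, 195 and 11 with 2 of Gzmc.

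The genes lie side by side on chromosome 14, on the minus strand of GRCm38 (GENCODE M21): Gzme (ENSMUSG00000022156) at 56117626 to 56120625, Gzmd (ENSMUSG00000059256) at 56129556 to 56132608, Gzmg (ENSMUSG00000040284) at 56156582 to 56159579, Gzmf (ENSMUSG00000015441) at 56205263 to 56211417, Gzmc (ENSMUSG00000079186) at 56231441 to 56234656 and Gzmb (ENSMUSG00000015437) at 56258838 to 56262260, with Gzmn between Gzmg and Gzmf. From Gzme to Gzmb the cluster spans 144635 bases. The transcripts of Gzmd, Gzme, Gzmf and Gzmg are close copies, while those of Gzmc matched them at 68.8% to 70.6% of aligned positions and those of Gzmb at 45.4% to 46.8%. Aligned over their whole length, Gzmd and Gzme transcripts matched at 868 of 964 positions, Gzmf and Gzmg at 805 of 920, and Gzmf and Gzmd at 803 of 966. Within the last 500 bases, where 3′ reads fall, 7 of 411 stretches of 90 bases of Gzmd were found whole in a Gzme transcript, and the other pairs shared none. The division of reads between Gzmd and Gzme is thus the least certain, and Gzmd and Gzme are read together below where possible.

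The promoters are shown because the members differed in which of these neighbouring genes they used. In the RefSeq promoter table for GRCm38.p6 (250 bases before to 50 after each gene start), Gzmf, Gzmg, Gzmc, Gzmd and Gzme shared a stretch in which 67 of 80 positions were alike in all 5. It starts with a RUNX motif (TGTGGT, capitals) and holds, 51 bases further on, an 8-base position (capitals) that is the cAMP response element (CRE) palindrome TGACGTCA in Gzmf, Gzmg and Gzmc. All are written 5′ to 3′ on the minus strand, and the stretches lie at chr14:56211461-56211540 (Gzmf), chr14:56159628-56159707 (Gzmg), chr14:56234686-56234765 (Gzmc), chr14:56132626-56132705 (Gzmd) and chr14:56120659-56120738 (Gzme).
Gzmf: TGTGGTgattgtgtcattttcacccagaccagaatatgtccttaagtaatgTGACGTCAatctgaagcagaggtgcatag
Gzmg: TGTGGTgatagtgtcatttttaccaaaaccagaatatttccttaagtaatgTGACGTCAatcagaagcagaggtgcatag
Gzmc: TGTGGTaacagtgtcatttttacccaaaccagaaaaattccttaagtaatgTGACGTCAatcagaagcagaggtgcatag
Gzmd: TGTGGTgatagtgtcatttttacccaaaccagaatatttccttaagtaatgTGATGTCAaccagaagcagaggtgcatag
Gzme: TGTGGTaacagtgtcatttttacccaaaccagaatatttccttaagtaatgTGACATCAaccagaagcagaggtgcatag

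Counted from the first base of the palindrome, with the Gzmf base first, Gzmd has C4T and Gzme has G5A, so neither holds the CRE motif there or elsewhere in its 300 bases. The CRE was 82 bases before the gene start in Gzmf, 77 in Gzmg and 57 in Gzmc. Of the 26742 promoters of the table, 505 (1.89%) hold TGACGTCA and 4501 (16.8%) hold TGTGGT on either strand. A RUNX motif with a CRE 51 bases on, both on the gene's strand, was found in 3 of the 26742, those of Gzmc, Gzmf and Gzmg, a spacing that was taken from Gzmf itself. Each of the 5 promoters held a second TGTGGT on the other strand, and none held an AP-1 motif (TGANTCA, in 7.92% of promoters) or a STAT motif (TTCNNNGAA, in 8.5%). The promoter of Gzmb held an AP-1 motif and no CRE. For Gzmf, the most abundant of the 4 granzymes of the rule, the whole promoter at chr14:56211358-56211657 is printed with RUNX motifs and the CRE in capitals.
Gzmf promoter: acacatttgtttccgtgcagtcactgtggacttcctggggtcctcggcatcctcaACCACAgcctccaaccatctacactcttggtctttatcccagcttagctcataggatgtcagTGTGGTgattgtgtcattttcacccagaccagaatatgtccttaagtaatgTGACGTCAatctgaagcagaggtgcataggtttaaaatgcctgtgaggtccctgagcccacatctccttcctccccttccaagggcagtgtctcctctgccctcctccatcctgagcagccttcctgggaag

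The neighbouring Gzmc, which the rule did not use, differed between the libraries. In resistant members Gzmc had 1367 UMIs in 33 of 64 cells, and in sensitive members 7 UMIs in 4 of 18. Levels below are given as counts per 1000000 UMIs (CPM) of the summed cells, with the 4 granzymes of the rule left out of the total. Gzmc stood at 2635 CPM in resistant members and 75.0 in the other CD8+ non-cycling cells of that library, 35.2-fold higher (31.9 to 38.8), and 25.6-fold without the member that held 417 of its UMIs. In the sensitive library it stood at 56.7 CPM in members and 126 in the others (ratio 0.450, 0.180 to 0.931), where 763 UMIs lay in 30 cells with fewer than 3 UMIs of the other granzymes. At 2000 UMIs a cell Gzmc was detected in 25 of 63 resistant members (39.7%) and 37 of 1336 others (2.77%), and in 2 of 18 sensitive members (11.1%) and 11 of 1166 others (0.943%), so by detection members were above the others in both libraries while the sensitive CPM was not.

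Gzma, which encodes granzyme A from a separate locus on chromosome 13 (113093825 to 113100981), behaved differently within the members. It had 1802 UMIs in 16 of 64 resistant members and 25 UMIs in 3 of 18 sensitive members, at 3474 and 203 CPM. Against the other CD8+ cells of its library it was 2.97-fold higher (2.82 to 3.12) in the resistant and lower (0.224, 0.145 to 0.331) in the sensitive library. By detection at 2000 UMIs a cell members were above the others in both, at 20.6% against 10.6% and, in the sensitive library, 3 of 18 (16.7%) against 7.12%. Of the 64 resistant members, 24 had Gzmd or Gzme and 40 had neither. At least 5 Gzma UMIs were present in 11 of those 40 and 1 of the 24, and Gzma CPM was 6036 without Gzmd and Gzme against 306 with them. Of the sensitive members 1 of 10 with Gzmd or Gzme and 2 of 8 without had 5 or more Gzma UMIs, and the ratio of Gzma CPM with over without was 1.12, with an interval of 0.473 to 2.73 that includes 1. All 14 Gzma UMIs of the former lay in 1 cell, and without it they had none (upper limit of the ratio 0.369). In the resistant library Gzmc went the other way, at 5450 CPM in members with Gzmd or Gzme and 359 in those without. That was 15.2-fold (12.4 to 18.7), and 11.3-fold (9.22 to 14.0) without its top cell. Gzmg, a gene of the rule, had 413 UMIs in 9 of the 24 members with Gzmd or Gzme and 2 UMIs in 2 of the 40 without. Of the 413, 234 lay in 1 cell and 150 in another. Spp1 was 8.32-fold higher (7.37 to 9.41) in members with Gzmd or Gzme, but 2.33-fold (2.01 to 2.69) without the 1 cell that held 1550 of its 2045 UMIs there. Prf1 was 2.30-fold higher (1.84 to 2.89), and 1.56-fold (1.21 to 1.997) without its top cell. Havcr2, at 1.03 (0.653 to 1.60), had an interval that includes 1, as did Pdcd1 (0.605 to 1.05). In the sensitive library, with 10 members with Gzmd or Gzme and 8 without, Spp1 was 9.17-fold (6.44 to 13.5), Prf1 8.22-fold (5.05 to 14.2) but 3.53-fold (2.04 to 6.39) without the cell that held 114 of its 168 UMIs there, Havcr2 5.95-fold (2.07 to 23.4) and Pdcd1 3.25-fold (1.73 to 6.54) higher with them, and Gzmc, at 1.17 (0.199 to 8.02), had too few UMIs to compare.

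**Figure D2:**
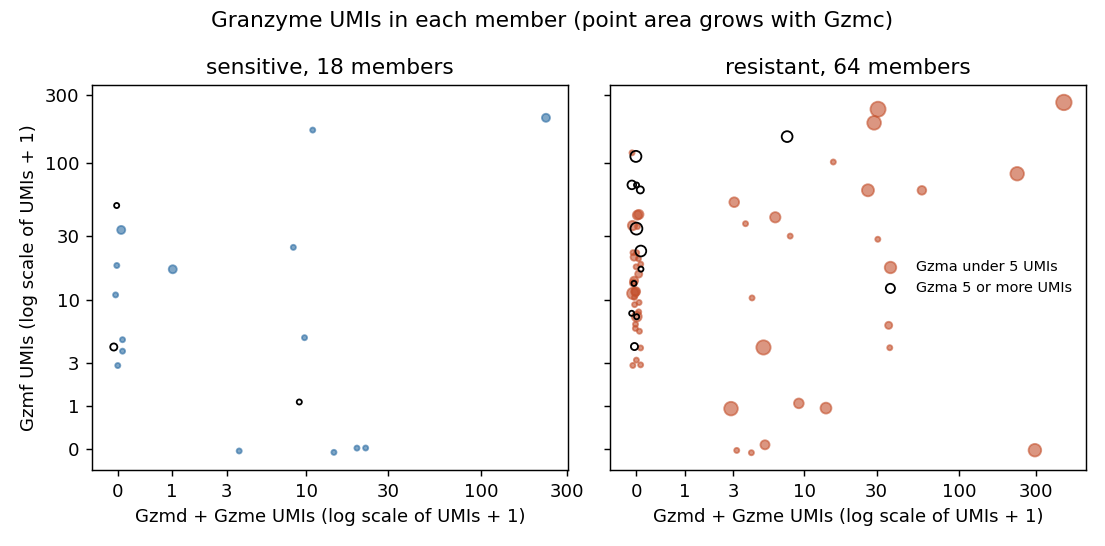
Gzmf UMIs (vertical axis) against summed Gzmd and Gzme UMIs (horizontal axis) in each of 18 sensitive and 64 resistant members, both on a log scale of UMIs + 1 with a small random shift, point area growing with Gzmc. Open circles mark members with at least 5 Gzma UMIs, and 11 of the 12 in the resistant library stand at 0 Gzmd and Gzme.

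Against the other CD8+ non-cycling cells, members were higher for the killing genes Prf1 and Gzmb, the osteopontin gene Spp1 and the receptor genes Havcr2 and Tnfrsf9, and lower for Xcl1, Cxcr3, Itgae and several interferon-stimulated genes. A gene was called when it was past 2-fold the same way in both libraries. Of 9850 genes with enough UMIs, 85 were higher (0.863%) and 106 lower (1.08%). Among genes with a ratio, 4474 were above 1 and 3791 below in the sensitive library, and 3948 and 5737 in the resistant library. How many of all genes lay on the same side in both libraries was not counted. Counts of listed genes above or below 1 have only these numbers beside them. Many called genes rested on few cells: 66 of the 85 were seen in under 5 members of at least 1 library, and 19 of the 85 stayed past 2-fold in both libraries when, for each gene, its top member cell was left out. Of these, Dsc2 and Serpinb9b then had fewer than 20 UMIs in a library, the minimum for a call. The remaining 17 were Spp1, Prf1, Gzmb, Havcr2, Tnfrsf9, Serpine2, Fcrl6, Klra5, Myo10, Filip1, Bnip3, Ankrd37, Adam8, Upp1, Slc30a4, Klc3 and AC160336.1, named after their values were seen, and all 17 also stayed past 2-fold without the members and comparison cells that carried markers of other lineages. Most of the lower genes were seen in few members, 101 of the 106 in under 5 of at least 1 library. Leaving out a top member cell is no check of them. Without cells carrying other-lineage markers 36 of the 106 stayed called.

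Spp1, which encodes the secreted glycoprotein osteopontin, was the most abundant gene among the 12 highest. It had 2349 UMIs in 50 of 64 resistant members and 388 in 14 of 18 sensitive members. Its level was 4529 CPM in resistant members against 286 in the others (15.8-fold, 14.9 to 16.8) and 3143 against 405 in the sensitive library (7.76-fold, 6.95 to 8.64). A single resistant member with 31607 UMIs held 1550 of the Spp1 UMIs, with 317 granzyme UMIs and no Gzmb or Prf1, and without the top cell the ratios were 5.73 and 5.38. At 2000 UMIs a cell Spp1 was detected in 43 of 63 resistant members (68.3%) and 22.5% of the others, and in 11 of 18 sensitive members (61.1%) and 17.2% of the others, while 5.27% and 12.3% of fibroblast-gated cells had a UMI.

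**Figure D3:**
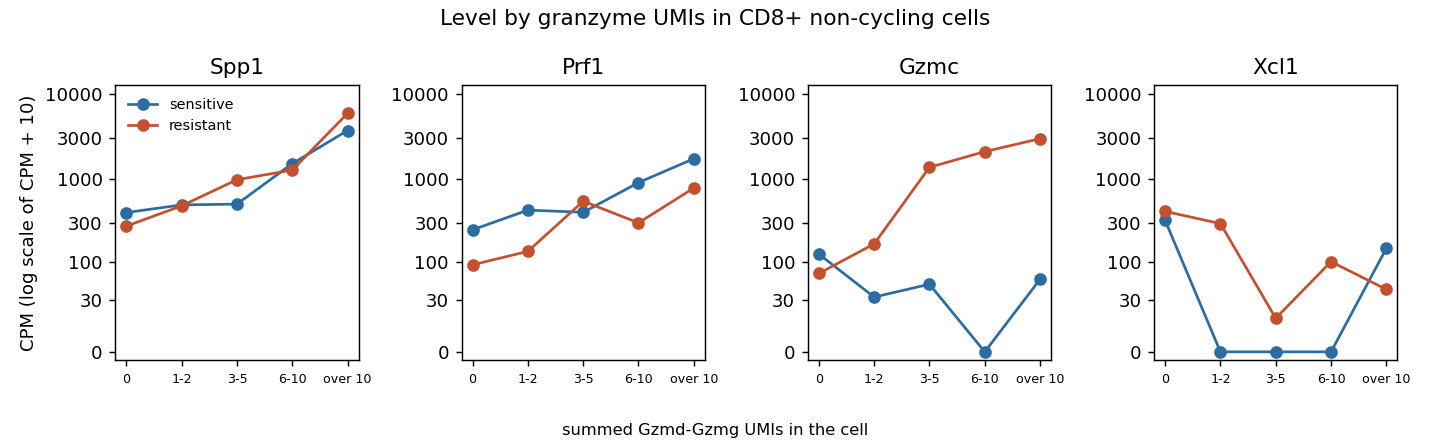
CPM of Spp1, Prf1, Gzmc and Xcl1 (vertical axes, log scale of CPM + 10) in CD8+ non-cycling cells by summed Gzmd-Gzmg UMIs of the cell (horizontal axes), sensitive in blue and resistant in red. Spp1 goes from 279 to 5874 CPM in the resistant and from 405 to 3710 in the sensitive library between cells with 0 and over 10 granzyme UMIs, but 1 of the 43 resistant cells of the top bin held 1550 of its 2180 Spp1 UMIs and without it the bin is at 1854 CPM. Gzmc is high with the granzymes in the resistant library alone. The bins of 1 to 10 granzyme UMIs hold 1 to 8 sensitive cells and 9 to 38 resistant cells each.

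Perforin and granzyme B transcripts were higher than in the other CD8+ cells. Prf1, which encodes perforin, was 7.27-fold higher (6.38 to 8.26) in resistant and 5.97-fold higher (5.10 to 6.96) in sensitive members, with 355 UMIs in 48 of 64 and 186 in 14 of 18 cells. The highest sensitive cell held 114 of those 186 UMIs, and without it the sensitive ratio was 2.67. Gzmb was 5.19-fold (4.89 to 5.51) and 3.50-fold (3.23 to 3.80) higher and was detected in 54 of 64 and 16 of 18 members. Of the 11 cytotoxic genes with enough UMIs, Prf1 and Gzmb were called in both libraries and none was called lower. Gzmk, typical of earlier effector cells, had ratios of 1.45 (1.11 to 1.87) and 0.534 (0.305 to 0.871), the granule protein gene Nkg7 1.07 and 1.13, and the death ligand gene Fasl 0.784 (0.574 to 1.05) and 0.679 (0.407 to 1.06), the resistant library first. Serpins that inhibit granzymes were called in 2 of 6 cases. Serpinb9b, a close relative of the granzyme B inhibitor gene Serpinb9, was 11.1-fold and 8.65-fold higher from 30 UMIs in 5 resistant and 3 UMIs in 2 sensitive members. Serpinb6b was 5.55-fold and 2.43-fold higher, and without its top cell the sensitive ratio was 0.677. Serpinb9 itself was 1.47-fold (0.893 to 2.31) and 3.11-fold (1.78 to 5.07).

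Of 10 inhibitory receptor genes Havcr2 and Entpd1 were called higher. Havcr2, which encodes TIM-3, had 86 UMIs in 42 of 64 resistant and 31 in 12 of 18 sensitive members, 3.20-fold (2.50 to 4.04) and 3.30-fold (2.22 to 4.75) above the others. Entpd1, which encodes the ectonucleotidase CD39, was 2.13-fold (1.70 to 2.64) and 2.25-fold (1.55 to 3.18) higher, and 1.76-fold in the sensitive library without its top cell. Pdcd1, which encodes PD-1, was near the level of the other cells, at 1.22 (1.06 to 1.40) and 1.24 (0.942 to 1.59). Pdcd1 and Havcr2 together were detected in 10 of 63 resistant members (15.9%) against 5.39% of the others, and in 4 of 18 sensitive members (22.2%) against 6.52%, at 2000 UMIs a cell. Of 8 costimulatory receptor genes Tnfrsf9, which encodes 4-1BB, was called, at 2.50-fold (2.22 to 2.80) and 3.03-fold (2.46 to 3.70). Of the 8, 6 were above 1 in both libraries, a count without an all-gene share beside it. Rgs16, which encodes a regulator of G protein signalling, was 2.19-fold and 2.12-fold higher, and without its top cell the sensitive ratio was 1.27. The 4-1BB gene was detected in 83.3% of sensitive and 58.7% of resistant members against 23.7% and 31.3% of the others, at 2000 UMIs a cell.

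Glycolysis genes were mostly above the level of the other cells. Of 16 listed glycolysis and hypoxia genes 13 were above 1 in both libraries and none was below 1 in both, against 1 called, Bnip3, a hypoxia-induced mitophagy gene at 2.93-fold (2.34 to 3.64) and 3.62-fold (2.49 to 5.11). In the resistant library the hypoxia genes Egln3, at 0.396 (0.0471 to 1.48), and Vegfa, at 0.429 (0.0870 to 1.29), were past 2-fold lower on 2 and 3 UMIs, and both were above 1 in the sensitive library on 2 UMIs each. The median log2 ratio of the list was 0.51 in the resistant library and 0.69 in the sensitive library, beside -0.11 and 0.07 over all genes. Ldha, which encodes lactate dehydrogenase, had 1.61 (1.48 to 1.76) and 1.83 (1.58 to 2.12), Pgk1 1.51 (1.35 to 1.69) and 1.79 (1.46 to 2.18), and Aldoa 1.57 (1.46 to 1.69) and 1.63 (1.43 to 1.85). Irf8, a transcription factor gene of activated CD8 T cells, was 1.89-fold (1.54 to 2.29) and 4.14-fold (3.22 to 5.26) higher, and the helix-loop-helix regulator gene Id2 1.60-fold and 1.59-fold. None of the 21 transcription factor genes with enough UMIs was called. Among them Tbx21 had 0.713 (0.431 to 1.12) and 1.67 (0.963 to 2.70), Eomes 1.33 (0.708 to 2.29) and 0.931 (0.190 to 2.77), and Crem, a gene of the CRE-binding family, 0.850 (0.544 to 1.27) and 1.52 (0.844 to 2.53). Runx3, which encodes the RUNX factor of CD8 T cells, had 1.00 (0.813 to 1.22) and 1.76 (1.21 to 2.50).

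**Figure D4:**
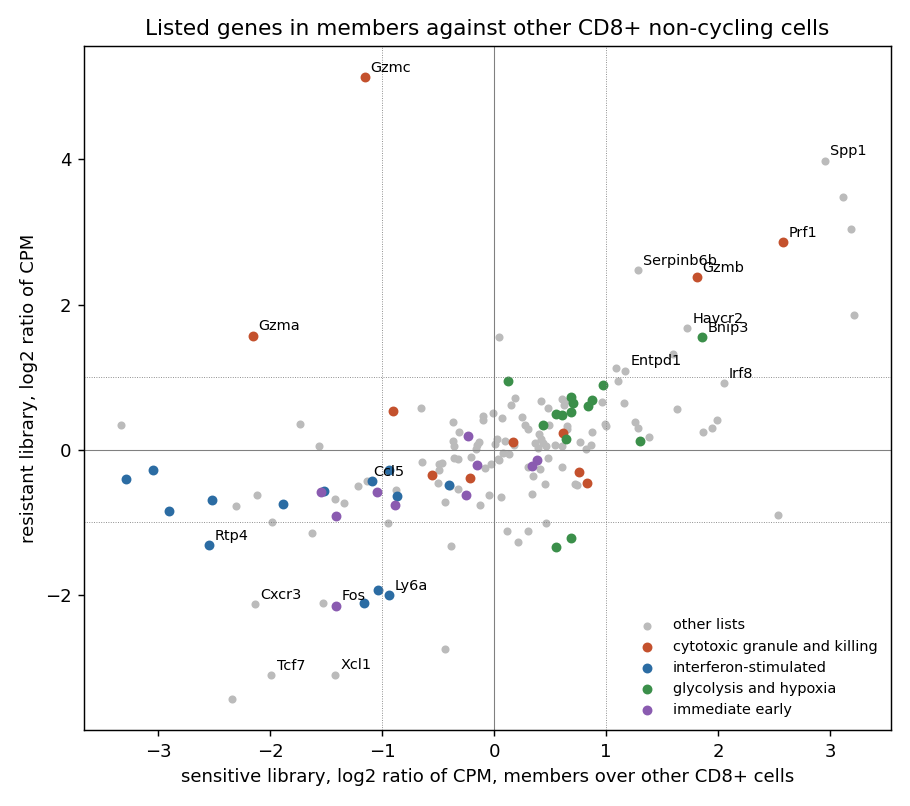
Log2 ratio of CPM in members over the other CD8+ non-cycling cells, sensitive library on the horizontal and resistant library on the vertical axis, for listed genes with a ratio in both libraries, dotted lines at 2-fold. Prf1, Gzmb and Spp1 lie at the upper right (3.50-fold to 7.76-fold in the sensitive and 5.19-fold to 15.8-fold in the resistant library), interferon-stimulated genes (blue) lie below 0 on both axes, and Gzmc and Gzma lie at the upper left.

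Interferon-stimulated genes stood below their level in the other CD8+ cells. Of the list's 15 genes with enough UMIs 14 were below 1 in both libraries and none was above 1, and Ifit2, Rsad2 and Rtp4 were called lower, Rsad2 only with other-lineage cells and its top cell included (sensitive ratio 0.488, against 0.956 and 0.808 without them). The median log2 ratio of the list was -0.64 in the resistant and -1.33 in the sensitive library. Bst2, which encodes the antiviral membrane protein tetherin, had 0.675 (0.559 to 0.808) and 0.348 (0.206 to 0.551), and Isg15, which encodes a ubiquitin-like modifier, 0.596 (0.488 to 0.720) and 0.271 (0.144 to 0.464). Outside the list Ifi27l2a, another interferon-induced gene, chosen after its values were seen, was 0.290 and 0.205, and was detected in 34.9% of resistant members and 73.1% of the others, and in 2 of 18 sensitive members (11.1%) and 66.6% of the others, at 2000 UMIs a cell. At that depth 74.9% of resistant and 46.9% of sensitive fibroblast-gated cells also had a UMI of it. The antigen presentation list did not share the shift of the interferon-stimulated list: 6 of its 9 genes were above 1 in both libraries, and B2m had 1.09 (1.04 to 1.14) and 1.07 (0.982 to 1.16).

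Of 16 residency and homing genes Cxcr3 and Itgae were called lower and Rgs16 higher, and of 10 naive and memory genes Tcf7 and Id3 were called lower, on few UMIs. Cxcr3, the receptor gene for interferon-induced chemokines, had 5 UMIs in 5 resistant members and none in sensitive members, 0.229 (0.0737 to 0.539) and, read as 3 UMIs, at most 0.227 of the others. Itgae, which encodes the CD103 integrin chain of resident T cells, had 6 UMIs in 3 resistant members and none in sensitive members, 0.232 (0.0847 to 0.510) and at most 0.346. Tcf7 and Id3, regulators of stem-like and memory T cells, had 1 and 3 UMIs in resistant and 1 and 1 in sensitive members, 0.116 and 0.0923 against 0.251 and 0.197 of the others. The sensitive intervals, 0.00633 to 1.42 for Tcf7 and 0.00496 to 1.11 for Id3, include 1. Without cells carrying other-lineage markers Id3 was at 0.465 in the resistant library and gave no ratio in the sensitive library. No member had both a Tcf7 and a Pdcd1 UMI at 2000 UMIs a cell, 0 of 63 and 0 of 18, against 1.05% and 1.03% of the others, a level that these numbers of members cannot tell from 0 (exact upper limits 5.69% and 18.5%). Xcl1, which encodes the chemokine for cross-presenting dendritic cells, was 0.117 (0.0753 to 0.172) and 0.374 (0.209 to 0.618), and Ccl5 0.741 (0.699 to 0.785) and 0.456 (0.414 to 0.501). Of 12 immediate early genes Fos was called lower, at 0.225 (0.155 to 0.315) and 0.376 (0.214 to 0.612), and 7 were below 1 in both libraries. Without cells carrying other-lineage markers the resistant Fos ratio was 0.508, which ends the call, and Egr1 went from 0.667 to 1.33 in that library. Cd69, an early activation marker, had 0.599 (0.485 to 0.733) and 0.395 (0.241 to 0.612). In the remaining lists, of 13 cytokine and chemokine genes Spp1 and Areg were called higher and Xcl1 lower, of 10 NK-type receptor genes Ncr1 was called higher, of 10 cycle genes outside the rule Mcm5 was called lower (0.453 and 0.322, from 6 and 1 UMIs), and of 15 genes of the IL-2 receptor and STAT5 axis none was called.

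The rule on the 12 highest and 12 lowest genes also named genes seen in a handful of cells. Areg, which encodes the growth factor amphiregulin, was 8.26-fold and 9.11-fold higher from 90 UMIs in 5 resistant and 37 in 2 sensitive members, 74 and 31 of them in 1 cell. Serpine2, a secreted protease inhibitor gene, was 6.47-fold (5.05 to 8.24) and 10.4-fold (7.46 to 14.3) higher, in 8 and 7 members, with 64 of its 98 resistant UMIs in 1 cell and a ratio of 2.39 without it. Fcrl6, an Fc receptor-like gene of cytotoxic lymphocytes, was 4.39-fold (2.94 to 6.41) and 5.23-fold (2.53 to 9.76) higher in 20 and 5 members, and Myo10, an unconventional myosin gene, 3.89-fold (2.47 to 5.94) and 7.19-fold (3.44 to 13.6) in 16 and 7. Ncr1, the NK receptor gene, had 10 UMIs in 2 resistant members and 14 in 1 sensitive member. Dsc2, Tmem86a, Filip1 and Fibin had 8 to 21 UMIs in resistant and 3 to 10 in sensitive members. Among the 12 lowest Lbp, Ccn1, Sfrp4, Sfrp2, Mmp3 and Dpt are fibroblast genes, Lyz2 and Cebpd are myeloid genes, and Stim2 encodes a calcium sensor. Without cells carrying other-lineage markers Sfrp4 stood at 27.4 and Cebpd at 3.22 in the sensitive and Lbp at 3.37 and Lyz2 at 0.666 in the resistant library, and the other ratios of these 8 fibroblast and myeloid genes could not be formed. In terms of all UMIs, fibroblast markers summed to 356 CPM in resistant members and 2662 in their comparison cells, and to 3998 and 1844 CPM in the sensitive library, and their part in these ratios was not tested.

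Within the members, Gzmc and Gzma stood out between the resistant and the sensitive library. Of 1636 genes with enough UMIs in members, 68 were past 2-fold higher (4.16%) and 91 past 2-fold lower (5.56%) in resistant members, with a median ratio of 0.935. Gzmc was 46.5-fold higher (22.5 to 116) in resistant members, while in the other CD8+ cells it was 0.595 (0.533 to 0.663) of the sensitive level. Gzma was 17.2-fold higher (11.6 to 26.6) in resistant members and 1.30-fold (1.25 to 1.34) in the others. Both kept these differences without their top cells (41.1 and 26.1) and without cells carrying other-lineage markers (55.4 and 15.1). The other 6 of the 8 highest were Tnc, Cxcl2, S100a9, Thbs1, Hbegf and Gng11, with 63 to 248 UMIs in resistant and 0 to 3 in sensitive members, and in each at least 52 of the resistant UMIs lay in 1 cell. Of the 8 lowest, 7 (Saa3, Slpi, Col6a5, C3, Ccl8, Col3a1 and Penk) likewise had 36 or more of their 45 to 210 sensitive UMIs in 1 cell. They include fibroblast and macrophage genes, and the members with RNA of those lineages are counted above.

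Several cytokine and chemokine genes were lower in resistant members. Of 8 genes with enough UMIs 5 (Ccl3, Ccl4, Ifng, Csf1 and Penk) were past 2-fold lower and none higher, and the median log2 ratio was -1.25, beside -0.10 over all 1636 genes. Ccl4 was 0.266 (0.228 to 0.311) and Ccl3 0.300 (0.214 to 0.422), both inflammatory chemokines, with 349 UMIs in 33 of 64 and 312 in 12 of 18 members for Ccl4. Ifng, which encodes interferon gamma, was 0.489 (0.368 to 0.654), and 0.634 without its top cells, and Csf1 0.353 (0.223 to 0.567). The other CD8+ cells differed the same way, at 0.434 (0.422 to 0.445) for Ccl4, 0.267 (0.250 to 0.285) for Ccl3 and 0.491 (0.460 to 0.525) for Ifng, while Csf1 was 0.808 (0.739 to 0.883) there. Prf1 was lower in resistant members at 0.454 (0.379 to 0.545), and at 0.792 without its top cells. Gzmb was 0.544 (0.495 to 0.598), and 0.461 without its top cells, beside 0.373 and 0.367 in the other cells. Irf8 was 0.385 (0.285 to 0.522), Lag3 0.458 (0.347 to 0.608), Lamp1, which marks released granules on the cell surface, 0.339 (0.222 to 0.521), and Ly6a 0.325 (0.251 to 0.421). In the other cells these 4 stood at 0.845, 0.672, 0.831 and 0.679. Pdcd1 was 0.874 (0.656 to 1.18) and Havcr2 0.660 (0.433 to 1.03), with intervals that include 1. Isg15 was past 2-fold higher, at 2.03 (1.14 to 3.94), from 111 UMIs in resistant and 13 in sensitive members.

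**Figure D5:**
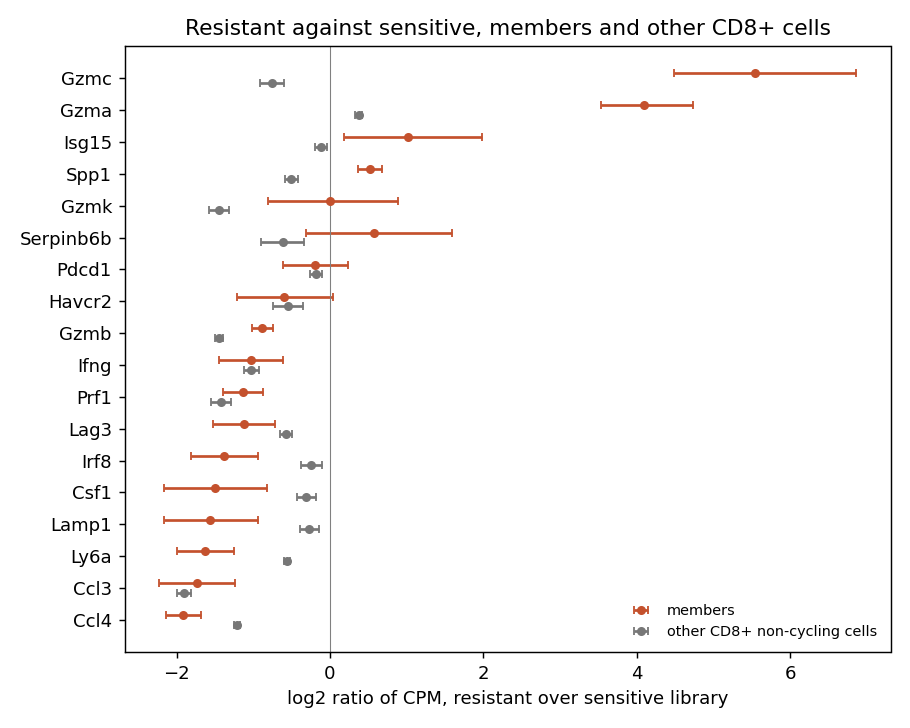
Log2 ratio of CPM, resistant over sensitive library (horizontal axis), with exact 95% counting intervals, in members (red) and in the other CD8+ non-cycling cells (grey), for 18 genes picked after their values were seen. Gzmc and Gzma are 46.5-fold and 17.2-fold higher in resistant members with 0.595 and 1.30 in the other cells, and Ccl3, Ccl4 and Ifng lie left of 0 in both.

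When genes also had to stay past 2-fold, with the minimum of UMIs still met, without their top cell and without other-lineage cells, 31 of the 68 higher and 28 of the 91 lower genes remained. Of the 31, 16 were mitochondrial, ribosomal or respiratory chain genes, such as mt-Nd3 (4.98) and Rpl35 (3.06), which in the other CD8+ cells were 4.23-fold and 1.92-fold higher. The median mitochondrial share was 4.89% in resistant and 2.42% in sensitive members and 5.85% and 2.50% in the others, and its part in these ratios was not tested.

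T cell receptor beta genes were spread over the members. A Trbv gene was detected in 52 of 64 resistant members over 15 genes and in 16 of 18 sensitive members over 8. Trbv13-2 was the most frequent in resistant members, in 14 (21.9%), and level with Trbv14 in sensitive members, in 6 (33.3%), beside 20.2% and 23.0% of the other cells. Trbv14 was detected in 6 sensitive members (33.3%) and 15.2% of their comparison cells, and in 3 resistant members (4.69%) and 5.33%.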

How the data were processed

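The authors aligned reads to mm10 and counted UMIs with Cell Ranger, per the submitters' processing notes (6.0.0 for T cells and 3.0.1 for whole tumor, per the file headers), and the deposited values are raw counts per gene and barcode, not normalized. The 5 libraries were grouped by title. Counts were summed over members and over the other CD8+ non-cycling cells of each library and given as CPM without the 4 granzymes. Ratios carry exact conditional binomial intervals, shares exact binomial ones. A count of 0 was read as 3 counts and used only as a bound. Genes needed 20 UMIs in each library and 50 in all (members over others), or 50 UMIs in members (resistant over sensitive). Named genes were the 12 highest and 12 lowest by the ratio nearer 1 in both libraries, the 8 highest and 8 lowest resistant over sensitive, genes of 15 lists, and those said to be named later. Members and lists were chosen with earlier results of these data known. Ratios were tested on simulated summed counts, with 200 changed genes chosen among those with many UMIs. The simulation held no spread between cells, so it cannot show what UMIs piled in 1 cell do to a ratio. Doublets were called with Scrublet (scanpy 1.11.5) and kept in the main values. Strand use in counting was not given in the sources used here. Authors' clusters were not used here, and some genes are not reported here.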

Additional observations from a re-analysis of the deposited data

Results flagged for a closer look

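Gzmc and Gzma were past 2-fold in opposite directions between members and other CD8+ non-cycling cells in the 2 libraries, higher in resistant and lower in sensitive members, so that the resistant ratio was 78.2 times the sensitive ratio for Gzmc and 13.2 times for Gzma. This holds for summed CPM: by detection at 2000 UMIs a cell sensitive members were above the others of their library, at 11.1% against 0.943% for Gzmc and 16.7% against 7.12% for Gzma. The difference was not tested, since each group had 1 library. Gzmc in sensitive members rested on 7 UMIs in 4 cells and Gzma on 25 UMIs in 3 cells.

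The opposite pattern, higher in sensitive and lower in resistant members, was found for C3, Col3a1 and Slpi, with ratios between the libraries of at most 0.00999 for C3, 0.0262 for Col3a1 and at most 0.0488 for Slpi, also not tested. The bounds read 0 UMIs of C3 and Slpi in resistant members as 3. In sensitive members 87 of 91 C3 UMIs, all 157 Col3a1 UMIs and 207 of 210 Slpi UMIs lay in 1 cell each, and without it the sensitive ratios were 0.163, at most 0.0455 and 0.146.

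In the whole-tumor libraries, which the comparisons did not use and whose cells were kept at 200 or more genes, the 4 granzymes had 418 UMIs in 10 of 263 cells of the library labelled resistant, 5 UMIs in 5 of 488 cells of the control library and 0 UMIs in 269 cells of the sensitive library. Of cells with CD3 transcripts, 1 of 19 (resistant), 1 of 89 (control) and 0 of 8 (sensitive, exact upper limit 36.9%) had a granzyme UMI. In the resistant-labelled library Gzmf led with 227 UMIs, followed by Gzmd with 102, Gzmg with 48 and Gzme with 41, and 3 cells held at least 3 UMIs, 1 of them with CD3 transcripts. Its source field names a sensitive tumor while its title says resistant.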

How the results depend on the processing

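No paired analysis was possible because each group had 1 library. The share ratio of 3.12 stayed above 1 under all 13 alternatives, from 1.69 with Gzmf left out to 7.62 at a threshold of 10 UMIs. Counts of called genes moved more. The 85 genes higher in members became 33 with comparison cells matched on depth, 128 with means over cells, 34 at a minimum of 200 UMIs and 17 without each gene's top cell. The 106 lower genes became 44 after thinning, 181 with means over cells, 66 without other-lineage cells and 300 without top cells, a setting that takes each gene's highest cell from the members alone. The 68 genes higher in resistant members became 19 after thinning and 15 at 200 UMIs, and the 91 lower genes 9, 13 and, without top cells, 36. Thinning and the higher minimum left 393 and 402 of 1636 genes with enough UMIs.

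Single ratios were followed through the alternatives for named and listed genes only, 524 ratios, and not for all called genes. Among these 524, 10 ratios of genes called past 2-fold changed direction: Cebpd (sensitive library, 1.36 thinned, 3.22 without other-lineage cells), Sfrp2 (1.16 thinned), Sfrp4 (27.4 without other-lineage cells), Mcm5 (1.21 thinned), Serpinb6b (0.650 without Scrublet doublets, 0.677 without its top cell), Lbp in the resistant library (3.37 without other-lineage cells), and without their top cells Fibin (0.195), Ncr1 (0.371) and Tnc (0.0438) in the resistant library and Gng11 between libraries (0.688). The cause was not tested. Of the same 524 ratios, 158 that were not called crossed 1 under at least 1 alternative, among them Spp1 in resistant over sensitive members (1.44, but 0.752 without its top cells and 0.450 without other-lineage cells). The settings without other-lineage cells and without top cells were chosen after seeing the data. Leaving out replicates was not possible.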
